A study of Mus musculus with 12 samples.

Results

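Of the 12 libraries of a mouse myotube study, 6 were compared here: 3 labelled Bmal1 knockout against 3 labelled wildtype. They were selected on the measured levels of genes that the hypoxia-inducible factor HIF induces, which were low in all 6. Egln3, a HIF-induced prolyl hydroxylase gene, had 270, 243 and 241 normalized counts in the wildtype libraries (replicates 1 to 3) and 262, 194 and 202 in the knockout libraries (replicates 1 to 3). In the 6 libraries not selected it stood between 2036 and 2258. Slc2a1, the glucose transporter gene, stood between 475 and 588.5 in the selected libraries and between 3168 and 3554 in the others. These values chose the libraries and carry no test.

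The cells were primary myotubes, multinucleated fibres formed by fusion of cultured myoblasts, here from mice with a floxed Bmal1 gene. They received an adenovirus for 48 hours, either an empty one or one carrying Cre, the recombinase that cuts out DNA between loxP sites. They were then held in 21% or 1% oxygen for 6 hours. In the sample labels every wildtype library carries 21% oxygen and every Bmal1 knockout library 1% oxygen, whereas the study's design names both oxygen levels for both viruses. Wildtype replicates 1 to 3 are thus floxed cells without Cre, and knockout replicates 1 to 3 floxed cells with Cre, all infected with adenovirus. Loss of Bmal1, the presence of Cre and the oxygen label cannot be told apart in these 6 libraries, and the oxygen label of the knockout libraries goes against their Egln3 and Slc2a1 levels. Nothing in the labels ties a library to a culture, an animal or a batch, and the p-values may therefore rest on technical spread alone.

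Bmal1, listed in the table under its older symbol Arntl, encodes a transcription factor that pairs with CLOCK, binds E-box elements and activates clock genes. Among its targets are the period and cryptochrome genes, whose proteins inhibit the pair, and Nr1d1 and Nr1d2, which encode the REV-ERB receptors that repress Arntl itself through ROR elements. Dbp and its relatives carry the rhythm onward through D-box elements. In skeletal muscle the clock is known to act on Myod1, on sarcomere genes and on fuel use.

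The 6 libraries held 6376584 to 12463339 reads, and 9 abundant genes, most of them non-coding, took 52.9% to 64.5% of them. The shares of single abundant genes differed between the groups and among the knockout libraries. Gm42418 took 39.9%, 43.7% and 41.7% of reads in the wildtype libraries and 20.1%, 1.33% and 34.8% in the knockout libraries. An unnamed gene among the 9 took 0.70%, 0.44% and 0.46% against 3.82%, 30.5% and 1.47%. Wildtype replicate 2 stood apart: it was the shallowest, had 29.6% of genes at 0 against 15.3% to 19.7% in the other 5, and correlated with the other libraries at 0.868 to 0.902, whereas the others correlated with each other at 0.946 or more (log2 values, over genes of 1 library pair, a description). Its levels also rose with transcript length, by 0.24 on the log2 scale per doubling. The slope was 0.011 and 0.003 in wildtype replicates 1 and 3, and -0.098, -0.075 and -0.080 in knockout replicates 1 to 3. The trend with length thus differed between the groups without wildtype replicate 2 as well. Counts and values that moved most without that library are given both ways. The median SD of log2 values was 0.25 in the wildtype group, 0.11 without replicate 2, and 0.15 in the knockout group (n = 3, 2 and 3).

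A gene was called when its adjusted p was under 0.05 in limma, fitted to log2(normalized count + 1) over the 12484 genes with a mean of 10 or more. Differences are knockout minus wildtype on that scale, which understates the change of genes at low levels. Of the genes tested, 1181 were called (9.46%), with 713 higher in the knockout libraries (5.71%) and 468 lower (3.75%). At least 2-fold, 102 were higher and 205 lower. All 1181 had groups that did not overlap, a pattern that 18.1% of the genes tested showed with knockout higher and 16.6% with knockout lower. The split of calls followed the scaling. With the 9 abundant genes left out, the rest was rescaled to equal total reads instead of by size factors. In that fit 365 were higher and 1102 lower, and the median of all genes moved from -0.01 to -0.17. Thinning to a common depth started from the same remaining reads, so it is not a separate check, and gave 331 and 850. Quantile normalization gave 426 and 472. With all genes kept, TMM scaling gave 707 and 462, and upper-quartile scaling 835 and 413. Without wildtype replicate 2, 2101 genes were called (16.8%), 1262 higher (10.1%) and 839 lower (6.72%), and the 1181 were all among them in the same direction. Leaving out another library lowered the count, to 722 or 736 without wildtype replicate 1 or 3 and to 343, 424 or 388 without knockout replicate 1, 2 or 3. Every one of the 1181 differences kept its sign in each of these 6 fits. Of 122 called genes chosen for naming, 63 kept their call in all 6 fits and 21 kept it in 1 only.

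**Figure D1:**
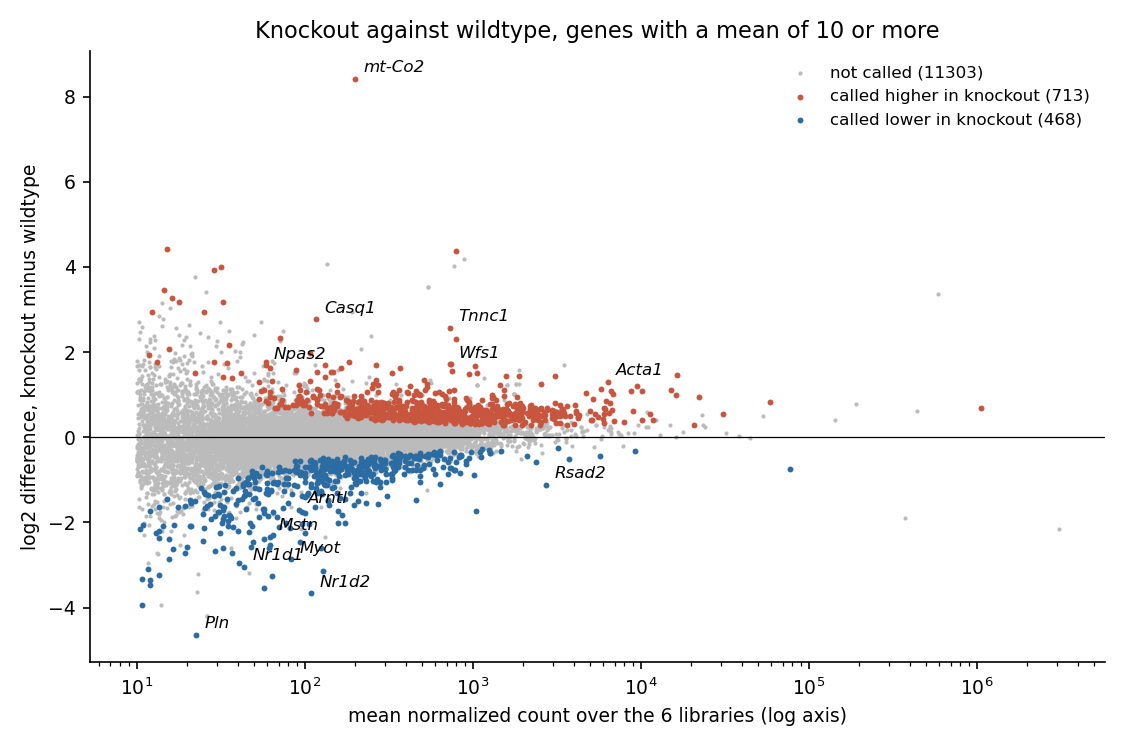
Each point is 1 gene: the horizontal axis is its mean normalized count over the 6 libraries (log axis), the vertical axis its log2 difference, knockout minus wildtype; grey points were not called, red points were called higher and blue points lower. Of the 713 red points 102 lie at a log2 difference of 1 or more, and of the 468 blue points 205 lie at -1 or less.

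The first question was whether the libraries followed their genotype label. Arntl (ENSMUSG00000055116, chromosome 7, 113207465 to 113314126, plus strand, mm10) had 133, 156 and 138 normalized counts in the wildtype libraries and 45.3, 42.3 and 41.7 in the knockout libraries. The groups did not overlap, and the difference was -1.70 ± 0.16 (SE; adjusted p = 0.00137). Reads remained in the knockout libraries, and with 1 value per gene the table does not show whether they come from the part of the gene that Cre leaves in place.

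The REV-ERB genes fell furthest of the clock genes. Nr1d2 stood at 213, 207.5 and 191.5 in the wildtype libraries and at 19.8, 11.2 and 16.0 in the knockout libraries, a difference of -3.65 ± 0.23 (adjusted p = 0.000361). Nr1d1 stood at 66.0, 86.7 and 83.2 against 7.42, 7.46 and 11.5, a difference of -3.04 ± 0.29 (adjusted p = 0.00156). For both genes every knockout library lay far below every wildtype library, and the calls held with any 1 library left out.

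Other clock genes moved by less and rested on fewer libraries. Dbp, a D-box activator, fell from 50.2, 48.0 and 50.5 to 9.06, 18.7 and 20.4, a difference of -1.64 ± 0.35 (adjusted p = 0.0261). Its groups did not overlap, but only wildtype replicate 2 could be left out with the call kept (adjusted p = 0.0589 to 0.0754 without each of the other 5 libraries). Per3, a period gene, fell from 25.5, 74.3 and 29.9 to 7.42, 6.22 and 5.32. Here wildtype replicate 2 was far above its group: the difference was -2.44 ± 0.47 with it (adjusted p = 0.0198) and -1.98 without it (adjusted p = 0.0086). The Per3 call was lost without any 1 knockout library (adjusted p = 0.0726, 0.0733 and 0.0813 without replicates 1, 2 and 3).

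2 clock genes rose. Npas2, which encodes a partner of BMAL1 that can stand in for CLOCK, stood at 21.1, 38.7 and 23.4 in the wildtype libraries and at 93.1, 78.4 and 97.6 in the knockout libraries, a difference of 1.70 ± 0.27 (adjusted p = 0.00881). Cry1, a cryptochrome repressor, rose from 67.8, 37.2 and 90.6 to 222, 194 and 185, a difference of 1.69 ± 0.30 (adjusted p = 0.0135), or 1.34 without wildtype replicate 2, the lowest of the 6. Neither gene's groups overlapped. The Npas2 call was lost without knockout replicate 1 (adjusted p = 0.0602) or 3 (0.0578), and the Cry1 call without knockout replicate 1, 2 or 3 (adjusted p = 0.0785, 0.0627 and 0.0598).

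The remaining clock genes did not pass the test with all 6 libraries. Clock stood at 269, 286.5 and 277 against 311.5, 326 and 298 (difference 0.17 ± 0.09, adjusted p = 0.297). Per1 (difference 0.02 ± 0.23), Cry2 (0.13 ± 0.18), Bhlhe40 (-0.13 ± 0.13), Nfil3 (-0.28 ± 0.14), Tef (0.20 ± 0.15) and Rora (0.03 ± 0.11) had overlapping groups. Per2 ran from 20.2 to 57.0 in the wildtype libraries and from 47.3 to 103 in the knockout libraries (difference 1.01 ± 0.44, adjusted p = 0.19). Ciart, a clock repressor, was at 28.2 and 28.0 in wildtype replicates 1 and 3 and listed at 0 in replicate 2, against 15.7, 22.4 and 22.2, so its sign turns with that library (1.14 with it, -0.48 without it). Without wildtype replicate 2, 3 more genes passed the test. Ppp1r3c, a glycogen-targeting subunit listed among the BMAL1 targets, stood at 66.0, 20.1 and 51.4 against 12.4, 9.95 and 13.3, with no overlap (-1.72, adjusted p = 0.0564; without that library -2.21, adjusted p = 0.00135). Pdk4, a kinase that restrains pyruvate use, stood at 108, 77.4 and 85.0 against 60.2, 46.0 and 61.2, also with no overlap (-0.68, adjusted p = 0.0807; without that library -0.78, adjusted p = 0.0285). Bhlhe41, a clock repressor, had overlapping groups with it (-0.55) and was called lower without it (-0.81, adjusted p = 0.039). In counts, 1 of 5 tested activators (7 measured) rose and 1 fell, 1 of 15 repressors (16 measured) rose and 3 fell, and 1 of 11 outputs and other BMAL1 targets (12 measured) rose and 3 fell. The 3 last were Dbp, Tcap and Myod1. The outputs had 1 rise and 5 falls without wildtype replicate 2. With the abundant genes left out they had 0 rises and 6 falls, in a fit where 365 of all 12475 genes rose and 1102 fell. Among the outputs Tspan4 was the riser with all 6 libraries. Its call was lost when the abundant genes were left out (adjusted p = 0.112) and without wildtype replicate 1 or any knockout library (0.0827 to 0.144). Measured clock genes under a mean of 10, with no test, included Rorb, Fbxl21 and Hlf.

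**Figure D2:**
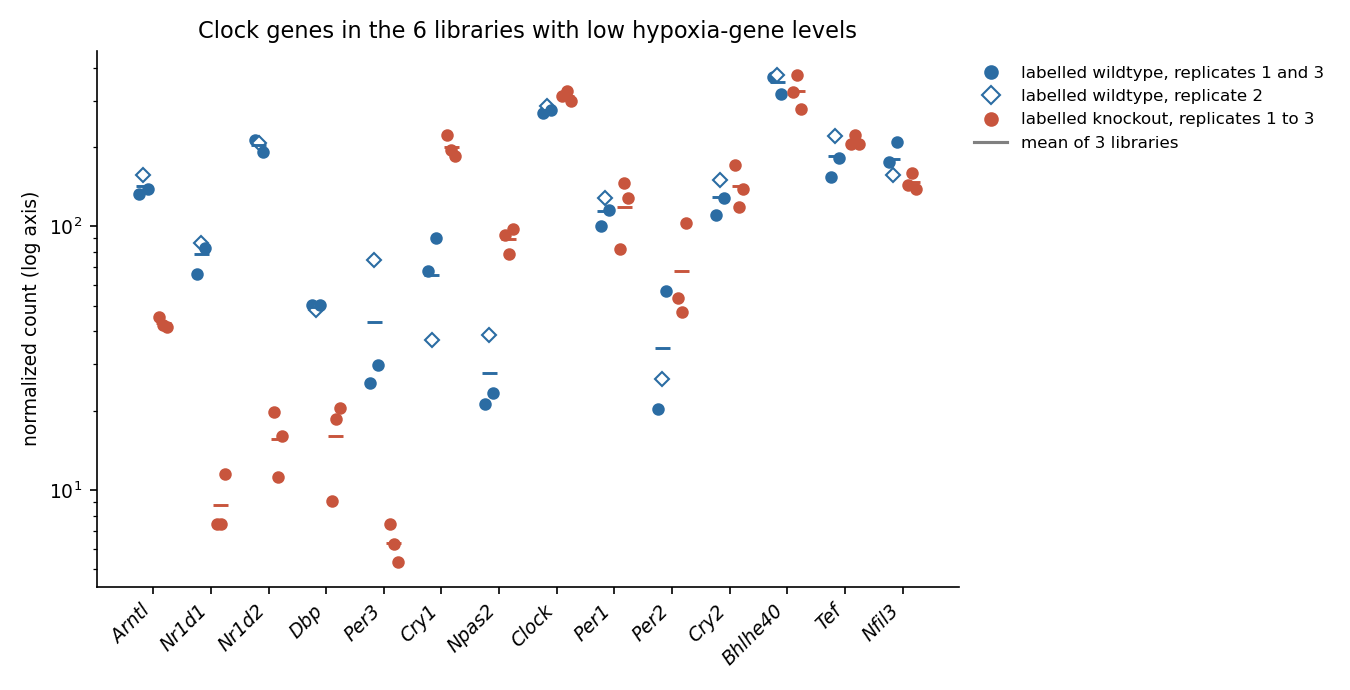
Normalized counts (log axis) of 14 clock genes in the 6 libraries: blue for the libraries labelled wildtype, with replicate 2 as an open diamond, red for those labelled knockout, and bars for the means of 3 libraries. Arntl, Nr1d1, Nr1d2, Dbp and Per3 lie lower in every knockout library, Cry1 and Npas2 higher, and the points of Per1, Per2, Cry2, Bhlhe40, Tef and Nfil3 overlap between groups.

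Promoter sequence was read from RefSeq windows (GRCm38.p6, 250 bases before to 50 after each start), which 27 of the 35 measured clock genes have. The search covered the E-box CACGTG, the ROR element cores TAGGTCA and TGGGTCA, and the D-boxes TTATGTAA and TTACGTAA, on both strands. Among all 32851 windows, 7.15% hold the E-box, 6.45% a ROR core and 1.06% a D-box. The 5 stretches printed here hold an E-box or D-box before the start. The 4 with an E-box are shown because their genes differ in their values, and Per3 because it holds 2 D-boxes. Among the other clock-list genes, Ppp1r3c, Bhlhe41 and Tspan4 also hold an E-box before the start, Timeless a D-box, and Nfil3 and Leo1 a ROR core. Capitals mark the match, and each stretch is the 250 bases before the start, read along the gene's strand.
Cry1, chr10:85185055-85185304, minus strand, E-box: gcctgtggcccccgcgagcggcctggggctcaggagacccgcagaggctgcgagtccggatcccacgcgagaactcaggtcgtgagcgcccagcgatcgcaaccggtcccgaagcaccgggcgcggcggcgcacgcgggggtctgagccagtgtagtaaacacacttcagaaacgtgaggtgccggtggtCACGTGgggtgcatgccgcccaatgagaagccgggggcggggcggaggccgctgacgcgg
Per1, chr11:69098699-69098948, plus strand, E-box: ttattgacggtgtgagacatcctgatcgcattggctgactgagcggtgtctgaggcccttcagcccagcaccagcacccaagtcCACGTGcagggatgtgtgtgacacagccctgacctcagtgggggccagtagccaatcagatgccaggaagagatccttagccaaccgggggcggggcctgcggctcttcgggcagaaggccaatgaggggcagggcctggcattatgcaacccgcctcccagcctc
Ciart, chr3:95882229-95882478, minus strand, E-boxes: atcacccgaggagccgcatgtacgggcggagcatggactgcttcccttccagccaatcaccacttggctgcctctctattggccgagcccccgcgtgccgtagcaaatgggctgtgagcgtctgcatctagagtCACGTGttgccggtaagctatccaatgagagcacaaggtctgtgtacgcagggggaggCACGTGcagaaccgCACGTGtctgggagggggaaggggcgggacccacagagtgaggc
Tef, chr15:81802423-81802672, plus strand, E-box: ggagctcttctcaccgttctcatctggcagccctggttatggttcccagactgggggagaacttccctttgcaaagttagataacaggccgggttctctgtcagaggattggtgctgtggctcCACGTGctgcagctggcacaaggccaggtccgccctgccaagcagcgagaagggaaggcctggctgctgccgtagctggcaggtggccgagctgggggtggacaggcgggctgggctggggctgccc
Per3, chr4:151044666-151044915, minus strand, D-boxes: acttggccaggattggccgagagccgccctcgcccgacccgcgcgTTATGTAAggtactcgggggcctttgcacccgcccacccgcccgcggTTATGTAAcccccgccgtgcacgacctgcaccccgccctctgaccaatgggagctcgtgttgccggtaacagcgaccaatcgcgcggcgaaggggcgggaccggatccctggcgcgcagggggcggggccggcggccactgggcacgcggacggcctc

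Cry1 has its E-box 60 bases before the start and rose. Per1 has 1 at 166 bases and Tef 1 at 127 bases, and neither gene was called. Ciart holds 3, at 116, 58 and 44 bases, and lay at 15.7 to 22.4 in the knockout libraries against 28.0 and 28.2 in the deeper wildtype libraries. Per3 holds 2 D-boxes, at 205 and 158 bases, and fell. The windows of Nr1d1, Nr1d2, Dbp and Npas2 hold none of the 3 elements, which says only that these letters are not in those 300 bases. A match is a description of the sequence and was not tested as a binding site. Over all genes with a window, the E-box was present in 11.98% of the genes tested, in 11.55% of those called higher (62 of 537) and in 15.5% of those called lower (55 of 354).

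Muscle genes moved in both directions. Thin filament genes, which encode actin, the troponins and tropomyosins, were mostly higher: 12 of 16 tested members (18 measured) rose and 2 fell, with a median difference of 0.67 against -0.01 over all genes. Tnnc1, the slow and cardiac troponin C gene, stood at 230, 177 and 232 in the wildtype libraries and at 1328, 1235 and 1220 in the knockout libraries, a difference of 2.57 ± 0.12 (adjusted p = 0.000186). Acta1, skeletal actin, rose from 3850, 3641 and 3547 to 9613, 8702 and 8987 (1.31 ± 0.07, adjusted p = 0.00027). Neither gene's groups came near each other. Tnnt3 (1.44 ± 0.08), Tnni1 (1.43 ± 0.14), Tnnt2 (1.11) and Tnnc2 (1.12) rose as well, so slow and fast troponin genes were both among the risers. In these bulk samples, more fibres and more RNA per fibre cannot be told apart.

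The 2 thin filament genes that fell encode leiomodins, which nucleate actin filaments. Lmod2 went from 117, 102 and 99.97 to 18.1, 14.9 and 16.9 (-2.61 ± 0.21, adjusted p = 0.000903), the groups lying far apart. Lmod3 fell by less (-0.71 ± 0.18, adjusted p = 0.048), and its call was lost under TMM scaling (adjusted p = 0.0555) and without any library other than wildtype replicate 2 (0.077 to 0.154). Neb, the nebulin gene, had a difference of -0.37 and was not called.

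Myosin genes and their partners moved in both directions. The light chain genes Myl6b (1.78 ± 0.18), Myl4 (1.51 ± 0.12), Mylpf (1.24 ± 0.12) and Myl1 (0.66) rose. The heavy chain gene Myh1, of fast IIx fibres, fell from 885, 1098 and 652 to 426, 379.5 and 390 (-1.11 ± 0.18, adjusted p = 0.00881). The spread of its wildtype libraries was wide, but the lowest of them stayed above every knockout library, and without knockout replicate 2 or 3 its adjusted p was 0.0508 and 0.0501. The developmental heavy chains Myh3 (3307 ± 368 against 3167 ± 58.5, SD, n = 3 each) and Myh8 did not pass the test. In all, 4 of 13 tested members (17 measured) rose and 4 fell. Mylk2, Mybpc1 and Mybpc2, a myosin kinase gene and the binding protein genes, made up the rest of the fallers, and the Mylk2 call was lost under TMM scaling (adjusted p = 0.0526) and without any library other than wildtype replicate 2 (0.116 to 0.153). The Mybpc2 call was lost without wildtype replicate 1 (0.0903) or knockout replicate 1, 2 or 3 (0.079, 0.143 and 0.148).

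Among Z-disc and M-band genes, which encode the anchors of the filaments, 9 of 28 tested members (30 measured) fell and 5 rose, with a median of -0.22. Myot, myotilin, fell from 155, 152 and 133 to 25.6, 17.4 and 16.0 (-2.86 ± 0.23, adjusted p = 0.000903). Tcap, the titin cap gene and a known clock target, fell from 100.4, 101 and 88.8 to 18.9, 13.7 and 21.3 (-2.38 ± 0.24, adjusted p = 0.00174). For both, the knockout libraries lay well below the lowest wildtype library. Xirp2 (-2.005 ± 0.25) and Ankrd23 (-1.82), which encodes a stretch-related protein, and Ttn, titin itself (-0.51, adjusted p = 0.0088), were also lower. The risers were Actn3, fast alpha-actinin (1.496 ± 0.19), Des, desmin (1.13 ± 0.07, from 3713, 3466 and 3723 to 8219, 7802 and 7839), Ldb3, Myom2 and Myom3. The Myom3 call was lost under thinning (adjusted p = 0.053) and without wildtype replicate 1 or 3 (0.0766 and 0.0716) or knockout replicate 1 or 3 (0.119 and 0.108).

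**Figure D3:**
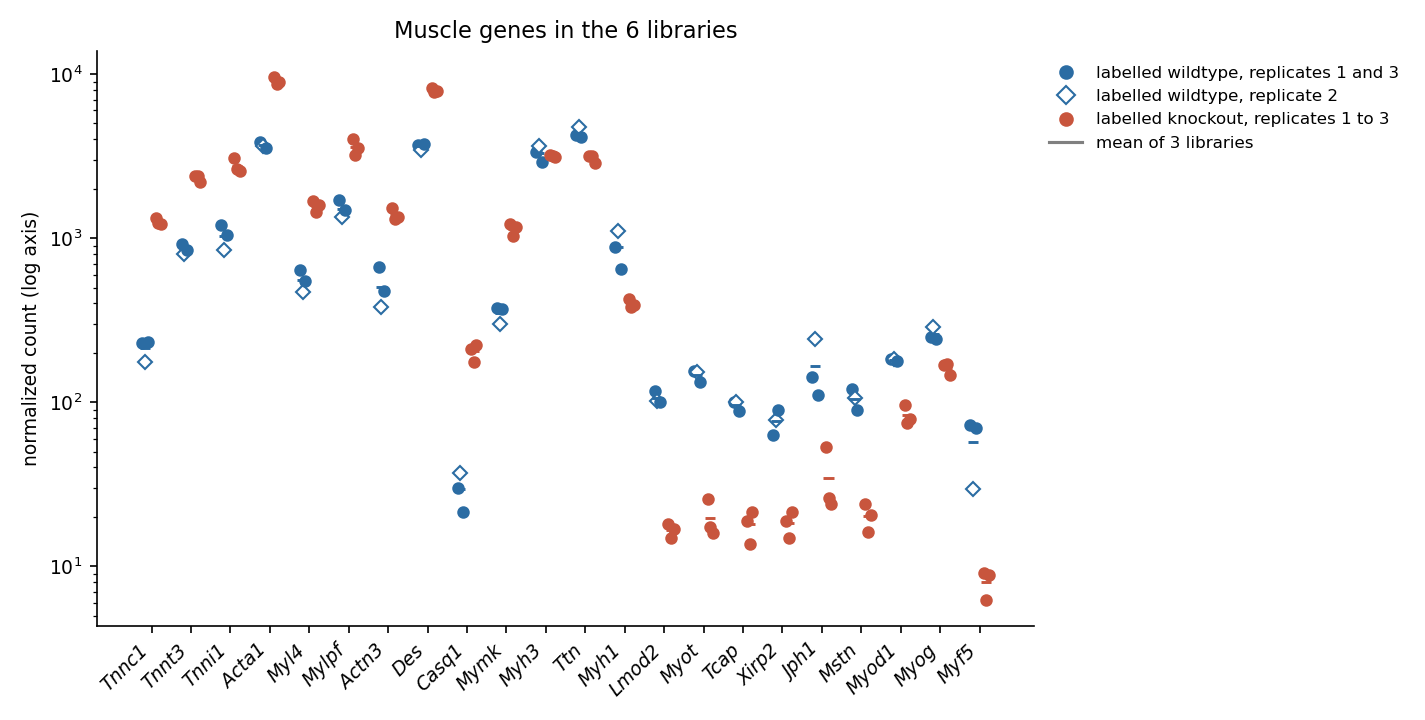
Normalized counts (log axis) of 22 muscle genes in the 6 libraries, with blue for those labelled wildtype (replicate 2 as an open diamond), red for those labelled knockout and bars for the means of 3. From Tnnc1 to Mymk every red point lies above every blue one, from Ttn to Myf5 every red point lies below, and Myh3 between them overlaps.

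Genes of excitation-contraction coupling, which link the membrane signal to calcium release, were also divided, with 7 of 24 rising and 5 falling. Casq1, the calcium store protein of fast fibres, rose from 29.9, 37.2 and 21.5 to 212, 177 and 223 (2.77 ± 0.23, adjusted p = 0.000975), without overlap. Cacna1s, the voltage sensor (1.06 ± 0.13), Hrc (1.01), Casq2 (1.01 ± 0.19) and Atp2a1, the fast calcium pump (0.97), also rose, though the Casq2 call was lost without knockout replicate 1 (adjusted p = 0.0912) or 3 (0.0832). Jph1, which holds the membranes of the triad together, fell from 143, 243 and 110 to 53.6, 26.1 and 24.0 (-2.24 ± 0.38, adjusted p = 0.0115). The call for Jph1 was lost without knockout replicate 2 or 3 (adjusted p = 0.0582 for each). Pln, phospholamban, an inhibitor of the slow pump, stood at 51.9, 37.2 and 43.9 in the wildtype libraries and at 1.65, 1.24 and 0 in the knockout libraries. All 3 knockout values are under the level of 3 reads in their library (2.47 to 3.73), so its fitted difference (adjusted p = 0.00378) gives no bound on the fold.

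Among the genes that direct muscle differentiation, more fell than rose: 9 of 23 tested myogenic regulators (24 measured) fell and 3 rose, with a median of -0.69 (11 and 4 without wildtype replicate 2). Myod1 stood at 183, 183 and 177.5 in the wildtype libraries and at 95.6, 74.7 and 79.0 in the knockout libraries (-1.12 ± 0.14, adjusted p = 0.00413). Myf5, active in myoblasts, fell from 72.2, 29.4 and 70.1 to 9.06, 6.22 and 8.87 (-2.60 ± 0.42, adjusted p = 0.00987). Myog, myogenin, went from 249, 286.5 and 241 to 169, 170.5 and 145.5 (-0.68, adjusted p = 0.0168). In each of these 3 genes the groups were apart. Mef2c (-0.77), Six4 (-1.02), Tcf12, Vgll2, Msc (-1.61 ± 0.39) and Myf6 made up the rest of the fallers. Myf6 stood at 28.2, 18.6 and 21.5 against 1.65, 0 and 2.66, at or under the level of 3 reads in all 3 knockout libraries, and its call was lost without wildtype replicate 1 or 3 (adjusted p = 0.0688 and 0.0705) or knockout replicate 1 or 3 (0.0728 and 0.051). The Msc call was lost without any library other than wildtype replicate 2 (adjusted p = 0.102 to 0.134). The risers were Cdkn1c, a cell cycle inhibitor (1.52 ± 0.10, from 172 ± 12.2 to 495 ± 8.94, SD, n = 3 each), Smyd1, a muscle methyltransferase gene (0.86 ± 0.15), and Id3, an inhibitor of MyoD-type factors (0.51 ± 0.11). The call of Smyd1 was lost without knockout replicate 1, 2 or 3 (adjusted p = 0.066, 0.0586 and 0.0741). The call of Id3 was lost when the abundant genes were left out (adjusted p = 0.093) and without any library other than wildtype replicate 2 (0.0609 to 0.137).

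Mymk, which encodes the fusion protein myomaker, rose from 377, 299 and 367 to 1220, 1030 and 1173 (1.72 ± 0.12, adjusted p = 0.000426), with the groups far apart. Of the 15 tested fusion and adhesion genes (18 measured) 3 rose, and Jam3, an adhesion gene, fell (-0.94 ± 0.15, adjusted p = 0.0086). The other risers, Ncam1 and Kirrel, were not called with the abundant genes left out (adjusted p = 0.106 and 0.133), nor without any library other than wildtype replicate 2. At the neuromuscular junction 1 of 13 tested genes (15 measured) was called: Chrna1, an acetylcholine receptor subunit, rose from 1312 ± 42.3 to 2168 ± 61.8 (SD, n = 3 each; 0.72 ± 0.07, adjusted p = 0.00137). That count is near the 5.71% of all genes that were called higher, and was 3 without wildtype replicate 2. The fusion list had 5 rises and 1 fall without that library. Ckm, muscle creatine kinase, rose from 607, 406 and 478 to 1759, 1454 and 1496 (1.67 ± 0.15, adjusted p = 0.00132).

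In the atrophy and FOXO list 4 of 23 fell and 0 rose, against 3.75% and 5.71% of all genes tested. Without wildtype replicate 2 the counts were 7 and 0 (6.72% and 10.1% of all genes). With the abundant genes left out they were 8 and 0. In that fit 1102 of all 12475 genes tested were lower and 365 higher, and the median of all genes was -0.17. Mstn, myostatin, which restrains muscle growth, fell from 121, 105 and 89.7 to 23.9, 16.2 and 20.4 (-2.33 ± 0.23, adjusted p = 0.00175). Fbxo32, the ubiquitin ligase atrogin-1, fell from 323, 386 and 334.5 to 129, 111 and 117 (-1.54 ± 0.12, adjusted p = 0.000903). Both gaps were wider than the spread within either group. Fbxo30 (-1.03 ± 0.16) and Gadd45a (-0.73 ± 0.16) were the others, the latter only with all 6 libraries or without wildtype replicate 2 (adjusted p = 0.0734 to 0.125 without each of the other 5). Trim63, the other well-known atrophy ligase, had a difference of -0.55 and was not called, and Foxo1 had 0.00.

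In the glycogen list 2 of 20 tested genes (21 measured) rose and 3 fell, against 5.71% and 3.75% of all genes tested. Without wildtype replicate 2 the counts were 2 and 5 (10.1% and 6.72% of all genes). With the abundant genes left out they were 0 and 6, in a fit where 365 of all 12475 genes rose and 1102 fell. Ppp1r3a, the muscle subunit that targets a phosphatase to glycogen, fell from 225, 260 and 207 to 33.0, 22.4 and 21.3 (-3.15 ± 0.21, adjusted p = 0.000426). Gyg, glycogenin, the primer of glycogen synthesis, went from 358 ± 17.4 to 171 ± 1.42 (SD, n = 3 each; -1.06 ± 0.10, adjusted p = 0.00137), and Stbd1 fell by 0.76. Pygm, muscle glycogen phosphorylase (0.62 ± 0.12), and Gaa, the lysosomal glycogen enzyme gene (0.42 ± 0.10), rose, but neither was called with the abundant genes left out (adjusted p = 0.0528 and 0.113), nor without any 1 knockout library (0.054 to 0.142). The Stbd1 call was lost without wildtype replicate 1 or 3 (adjusted p = 0.0543 and 0.0505) or knockout replicate 2 or 3 (0.0678 and 0.0779).

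Of 21 tested regulators of mitochondrial formation (23 measured) 3 fell and 0 rose, against 3.75% and 5.71% of all genes tested. Ppargc1a, the PGC-1 alpha coactivator gene, stood at 38.7, 122 and 36.4 against 11.5, 3.73 and 9.76. Wildtype replicate 2 was high: the difference was -2.72 ± 0.58 with it (adjusted p = 0.0263) and -2.16 without it (0.013), and the call was lost without knockout replicate 1, 2 or 3 (0.0735, 0.0907 and 0.0822). Esrrg (-2.37 ± 0.45) and Perm1 (-2.09 ± 0.52), both linked to PGC-1 alpha, also fell, from 38.7 or less in each wildtype library. The Esrrg call was lost without any library other than wildtype replicate 2 (adjusted p = 0.0528 to 0.0725). The Perm1 call was lost without wildtype replicate 1 or 3 or knockout replicate 2 or 3 (adjusted p = 0.106 to 0.147) and in edgeR's quasi-likelihood test on the reads (0.0537).

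Structural genes of the respiratory chain went the other way, and so did ribosomal protein genes. Among 77 nuclear genes of oxidative phosphorylation 49 rose and 0 fell (median 0.72), and among 78 cytosolic ribosomal protein genes 73 rose and 0 fell (median 0.64). Uqcrh, a complex III subunit, rose from 385, 273 and 334.5 to 789, 738 and 689 (1.17 ± 0.13, adjusted p = 0.00306). Atp5k, an ATP synthase subunit, rose from 177, 125 and 192.5 to 383, 378 and 387 (1.23 ± 0.16, adjusted p = 0.00465). In both genes wildtype replicate 2 was the lowest of the 6 and the groups did not overlap. Rpl36 went from 536, 317.5 and 565 to 947, 868 and 873 (0.96 ± 0.20, adjusted p = 0.0261), or 0.70 without that library (adjusted p = 0.00047), and its call was lost without knockout replicate 1, 2 or 3 (0.116, 0.0942 and 0.0938), under quantile normalization (0.059) and with the length trend removed, where the difference was 0.28 (0.0629).

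These lists hold short transcripts, with a median length of 1005 and 1076 bases against 3447 over all genes tested, 2169.5 over the genes called higher and 3996.5 over those called lower. With each library's trend with length removed, 41 of the nuclear oxidative phosphorylation genes and 53 of the ribosomal protein genes were called higher and 0 of either lower, with medians of 0.51 and 0.41. With the abundant genes left out the counts were 36 and 49, with 0 lower, and with quantile normalization 36 and 17. Without wildtype replicate 2 they were 62 and 78, with medians of 0.58 and 0.53.

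Of the 13 mitochondrially encoded genes, which are transcribed inside the organelle, 10 rose, mt-Co2 included, and 0 fell (median 1.10). mt-Cytb (1.198), mt-Nd1 (1.10), mt-Nd4 (1.08) and mt-Co1 (0.83) were among them. mt-Co2 cannot be read in this way. It is listed at 0 in wildtype replicates 1 to 3 and at 409, 632 and 154 in knockout replicates 1 to 3. Gm28661, a nuclear copy on chromosome 1 whose transcript holds 99.5% of the 31-base stretches of mt-Co2, was listed at 10090, 8041 and 10870 in the wildtype libraries and at 19680, 21590 and 21300 in the knockout libraries (1.12 ± 0.12, adjusted p = 0.00191). Reads of these 2 genes can hardly be told apart, so the split between them is uncertain. Shared sequence was searched for mt-Co2 only, so the other mitochondrially encoded genes are not shown to be free of it. mt-Atp6, also called higher, had a wide wildtype spread: 452, 248 and 154 against 1356, 1039 and 1521 (2.31 ± 0.35, adjusted p = 0.0073). mt-Co3 was listed at 0 in wildtype replicate 2 and between 503 and 2113 in the other 5, and was not called.

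Genes of the interferon response, which cells raise against viral nucleic acid and which all 6 libraries expressed, changed in 1 direction where they were called: 13 of 52 fell and 0 rose (median -0.27). Rsad2, the antiviral protein viperin, stood at 3675, 3748 and 3804 in the wildtype libraries and at 1641, 1779 and 1774 in the knockout libraries (-1.11 ± 0.07, adjusted p = 0.0003). Oasl1 fell from 1354, 1217 and 1371 to 634, 817 and 697.5 (-0.88 ± 0.11, adjusted p = 0.00378). The replicates of each gene lay close together within groups and far apart between them. Mx2 (-1.45 ± 0.18), Ifit2 (-0.84) and Ifit3 (-0.57) fell as well. Irf7 (-0.14), Isg15 (-0.31) and B2m (0.16) were not called. Without wildtype replicate 2 the count was 25 lower and 0 higher. Of all genes tested 3.75% were called lower and 5.71% higher, or 6.72% and 10.1% without that library.

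In the integrated stress and unfolded protein response list 9 of 38 fell and 0 rose, and without wildtype replicate 2 18 fell and 3 rose. Of all genes tested 3.75% fell and 5.71% rose, or 6.72% and 10.1% without that library. Chac1, a glutathione-degrading enzyme induced through ATF4, fell from 197, 175 and 236 to 89.0, 87.1 and 88.7 (-1.18 ± 0.15, adjusted p = 0.00386). Trib3 (-0.78 ± 0.10), Atf3 (-1.53 ± 0.27), Herpud1 (-0.64) and the chaperone gene Hspa5 (-0.45) were among the others, the Atf3 call being lost without wildtype replicate 3 (adjusted p = 0.0514) or knockout replicate 1 or 3 (0.0681 and 0.0663). Ddit3 (-0.25) and Asns (-0.06) were not called. Of 24 heat shock genes 6 fell and 1 rose, or 9 and 1 without wildtype replicate 2. Hspa4l (-1.38 ± 0.17) and Hspa1a (from 198, 139 and 196 to 70.0, 73.4 and 66.6, -1.32 ± 0.17, adjusted p = 0.00469) fell the most. The riser, Hsp90ab1 (0.36 ± 0.06), had a difference of -0.03 under quantile normalization and was not called with the abundant genes left out (adjusted p = 0.0515) or without any 1 knockout library (0.0525 to 0.078).

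In the extracellular matrix list 11 of 40 rose and 0 fell, led by Timp3 (0.78 ± 0.14), Col4a2, a basement membrane collagen (from 2642 ± 41.4 to 4211 ± 273, SD, n = 3 each; 0.67 ± 0.07, adjusted p = 0.0021) and Timp1 (0.67 ± 0.10). Quantile normalization gave 5 higher and 8 lower for that list, with a median of -0.10 against 0.23, so its direction turns with that scaling, and without wildtype replicate 2 it gave 23 higher and 1 lower. With the abundant genes left out the list gave 9 higher and 4 lower, with a median of 0.06. In that fit 365 of all 12475 genes tested were higher and 1102 lower. The Timp3 call was lost without knockout replicate 1, 2 or 3 (adjusted p = 0.0711, 0.0694 and 0.077). In the autophagy and lysosome list 10 of 32 rose and 0 fell, among them the protease gene Ctsd (0.77 ± 0.08), Ctsl (0.64 ± 0.07) and Lamp1 (0.56 ± 0.07). Quantile normalization gave 5 higher and 1 lower there, without Lamp1 (adjusted p = 0.0777), and leaving out the abundant genes gave 6 higher and 3 lower, with a median of 0.10. In the antioxidant list of NRF2 targets 7 of 28 rose and 1 fell (5 and 3 with the abundant genes left out, with a median of 0.09). Gstm1, a glutathione transferase, rose from 164, 116 and 174 to 377, 403 and 369 (1.35 ± 0.16, adjusted p = 0.00357), with no overlap, and Srxn1 fell by 0.62, a call lost without knockout replicate 1 or 3 (adjusted p = 0.0902 and 0.0833).

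Among growth factors and vascular signals 4 of 32 rose and 2 fell, or 7 and 2 without wildtype replicate 2. Shares over all genes tested were 5.71% higher and 3.75% lower, or 10.1% and 6.72% without that library. The 2 falls are near those shares. The list's median difference was 0.15, and -0.015 with the abundant genes left out. Igf2, insulin-like growth factor 2, stood at 3582, 4250 and 3150 against 7150, 6296 and 6771 (0.89 ± 0.11, adjusted p = 0.00413), without overlap, though quantile normalization gave an adjusted p of 0.063. Igfbp3 (0.64 ± 0.07), Igfbp5 (0.53) and Igf1 (0.73 ± 0.17) rose, and Fgf21 (-0.90 ± 0.22) and Angpt1 (-0.50 ± 0.13) fell. Igf1 was not called with the abundant genes left out (adjusted p = 0.0609), Fgf21 not under upper-quartile scaling (0.0519) and Angpt1 not with edgeR (0.0549). The calls of Igf1, Fgf21 and Angpt1 held with no library left out other than wildtype replicate 2 (adjusted p up to 0.145, 0.151 and 0.163). Vegfa, a HIF target and so part of the choice of libraries, stood at 610, 1166 and 661 against 541, 570 and 562.

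In the cell cycle list 7 of 41 rose and 1 fell. Ube2c, a mitotic ubiquitin enzyme gene (0.68 ± 0.10), Kif23 (0.77 ± 0.16) and Aurka (0.64 ± 0.14) rose. The replication licensing gene Mcm6 fell from 976 ± 28.5 to 570 ± 24.9 (SD, n = 3 each; -0.78 ± 0.08, adjusted p = 0.0017). The list held 17 rises and 3 falls without wildtype replicate 2, and 3 and 2 with the abundant genes left out. Kif23 was not called under thinning (adjusted p = 0.104), nor Aurka with the abundant genes left out (0.0665), and Ube2c not without knockout replicate 1 (0.0544). The Kif23 call held with no library left out other than wildtype replicate 2 (adjusted p up to 0.104), and the Aurka call with no knockout library left out (0.0833 to 0.116). In cholesterol synthesis 4 of 24 rose and 0 fell, or 9 and 0 without wildtype replicate 2 and 0 and 0 with the abundant genes left out. Fatty acid handling had 3 rises and 1 fall of 29 tested (30 measured), with Fabp3, the muscle fatty acid carrier, going from 79.9 ± 8.05 to 248 ± 5.82 (SD, n = 3 each; 1.63 ± 0.13, adjusted p = 0.000903) and Acsl3 falling by 0.85, the latter not called without wildtype replicate 1 (0.0645) or any 1 knockout library (0.0567 to 0.095). That list had 7 rises and 2 falls without wildtype replicate 2, and 3 and 6 with the abundant genes left out. In the latter fit 365 of all 12475 genes tested were higher and 1102 lower. Of 23 p53 targets 1 rose and 2 fell, or 3 and 5 without wildtype replicate 2. Over all genes tested the shares were 5.71% higher and 3.75% lower, or 10.1% and 6.72% without that library. Of 21 tested immediate early genes (23 measured) 0 rose and 3 fell (Atf3, Klf4 and Jun), with Klf4 and Jun each called in only 1 of the 6 fits that leave out a library. In glycolysis, which overlaps the HIF targets that chose the libraries, 9 of 18 lay higher past the threshold and 0 lower (2 higher under quantile normalization), given as a description.

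**Figure D4:**
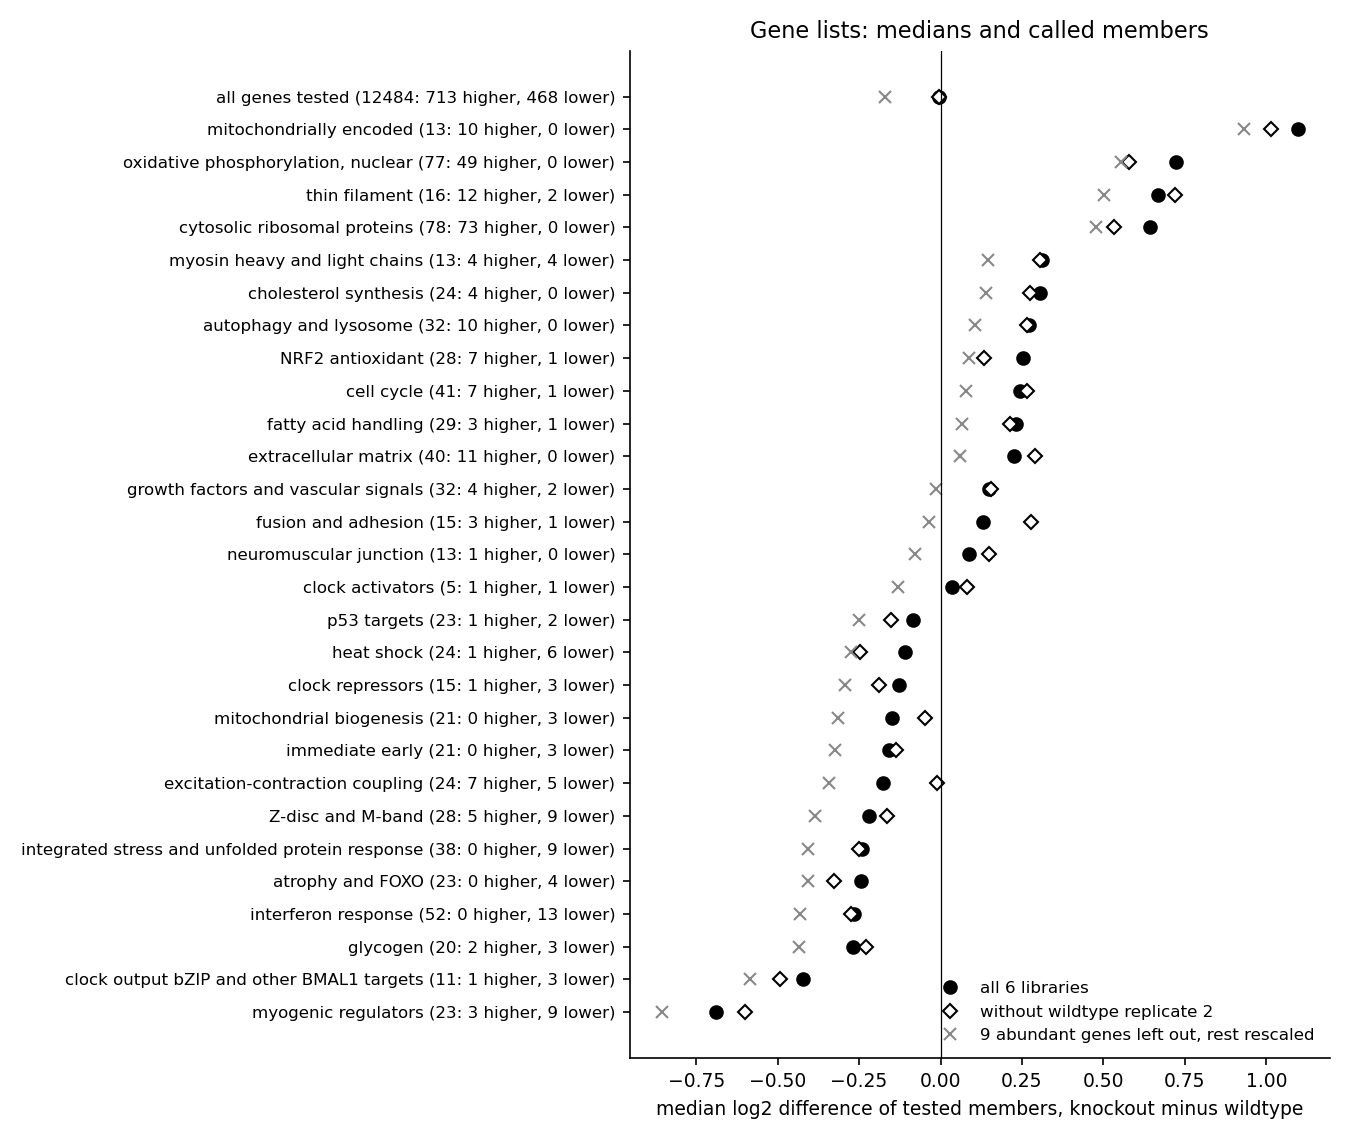
Median log2 difference, knockout minus wildtype, of the tested members of each gene list: filled circles for all 6 libraries, open diamonds without wildtype replicate 2, crosses with the 9 abundant genes left out; the numbers beside each name are the members tested and called. The crosses lie to the left of the circles in every list, as they do for all genes tested (-0.17 against -0.01). The mitochondrially encoded, nuclear oxidative phosphorylation, thin filament and ribosomal protein lists lie furthest above 0 under all 3. The myosin, fatty acid, cholesterol, NRF2, extracellular matrix, autophagy and cell cycle lists also stay above 0 under all 3, by less.

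The largest changes outside these lists were led by falls. Fam13a fell from 100.4, 141 and 79.4 to 7.42, 8.71 and 7.99 (-3.54 ± 0.29, adjusted p = 0.000975). Alpk2, a kinase gene of muscle, went from 96.8, 132 and 121.5 to 17.3, 11.2 and 7.10 (-3.26 ± 0.33, adjusted p = 0.00187). Cnr1, the cannabinoid receptor gene (-2.14 ± 0.21), Txlnb (-2.02 ± 0.17) and Fndc3c1 (-2.59 ± 0.25) also fell with any 1 library left out. In Mycl, Extl1 and Scn3b, wildtype replicate 2 stood at 356, 223 and 221.5 while replicates 1 and 3 stood between 46.7 and 81.9. Without it the differences were -1.69, -1.86 and -1.64 rather than -2.45, -2.54 and -2.29, and with 1 library left out the calls were lost in 4, 3 and 4 of 6 fits.

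Of the largest rises outside the lists, Wfs1, a membrane protein of the endoplasmic reticulum, was among the tightest: it stood at 371.5, 350.0 and 309 in the wildtype libraries and at 1184, 1077 and 1123 in the knockout libraries (1.72 ± 0.10, adjusted p = 0.00027). R3hdml rose from 28.2, 21.7 and 19.6 to 119, 134 and 105 (2.32 ± 0.22, adjusted p = 0.00139), with no overlap. Aif1l stood at 173, 68.1 and 160 against 405.5, 382 and 414 (1.69 ± 0.32, or 1.26 without wildtype replicate 2), and its call was lost without knockout replicate 1, 2 or 3 (adjusted p = 0.0863, 0.0735 and 0.0813). Stac2 (1.77 ± 0.40) and Rnu1b1 (1.98 ± 0.48) were each lost in 4 of the 6 fits that leave out a library. Rnu1b1 has near-identical copies among which reads may be split, so its value is uncertain.

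Markers of other cell types were examined beside these groups. Of 12 myotube markers 8 rose and 2 fell, and their summed level was 19840 to 21350 in the wildtype libraries and 33250 to 35640 in the knockout libraries. Fibroblast markers summed to 113600 to 123800 against 112500 to 123700, with 0 of 8 tested called. That sum is mostly the collagens Col1a1, Col1a2 and Col3a1, whose groups overlapped. Dpt (-0.18), Dcn (-0.22) and Lum (-0.56) lay lower in every knockout library without being called, while Pdgfra and Ly6a overlapped. With the abundant genes left out Dcn and Lum were called lower (adjusted p = 0.023 and 0.0343). Undifferentiated myoblast markers summed to 1943 to 2552 against 2576 to 2890, and the myoblast genes Myf5 and Msc fell. Of these 7 markers 0 rose with all 6 libraries and 3 without wildtype replicate 2: Mki67 (0.53, adjusted p = 0.00141), Ccnb1 (0.55, adjusted p = 0.0112) and Top2a (0.49, adjusted p = 0.0035), which dividing cells express. Endothelial markers summed to 956 to 1065 against 1240 to 1306, and 2 of 6, Pecam1 (0.49, adjusted p = 0.0251) and Cdh5 (0.44, adjusted p = 0.0147), rose. With the abundant genes left out neither was called (adjusted p = 0.0736 and 0.0628). Smooth muscle markers (9226 to 10380 against 10550 to 11030), adipocyte markers (119 to 153 against 120 to 162) and Schwann and neural markers (429 to 488 against 414 to 522) had 0 called with all 6 libraries. The smooth muscle sums did not overlap, and without wildtype replicate 2 Myh11 (0.95, adjusted p = 0.0198) and Pdgfrb (0.34, adjusted p = 0.00503) rose. Leukocyte markers summed to 41.1 to 71.2 against 56.8 to 85.8. The defining genes Ptprc and Adipoq were at 0 or under the level of 3 reads in all 6 libraries. The part of the fibroblast, endothelial, smooth muscle and myoblast markers in the results above was not tested.

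The same contrast could be read in libraries that the choice did not use. Knockout replicates 4 to 6 and wildtype replicates 4 to 6, with high HIF-target levels, share no library with the 6 above. There, 2837 of 12539 genes were called (22.6%), 1567 higher (12.5%) and 1270 lower (10.1%). Of the 712 genes called higher above and tested there, 706 had the same sign (99.2%) and 596 were called higher (83.7%). Of the 462 called lower, 449 had the same sign (97.2%) and 347 were called lower (75.1%). No gene was called in opposite directions, and 943 of the 2815 calls of those libraries that were tested here were made here in the same direction (33.5%). The median difference of the risers was 0.62 here and 0.46 there, and that of the fallers -0.87 and -0.73. Choosing genes for passing a threshold here favours larger values here.

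**Figure D5:**
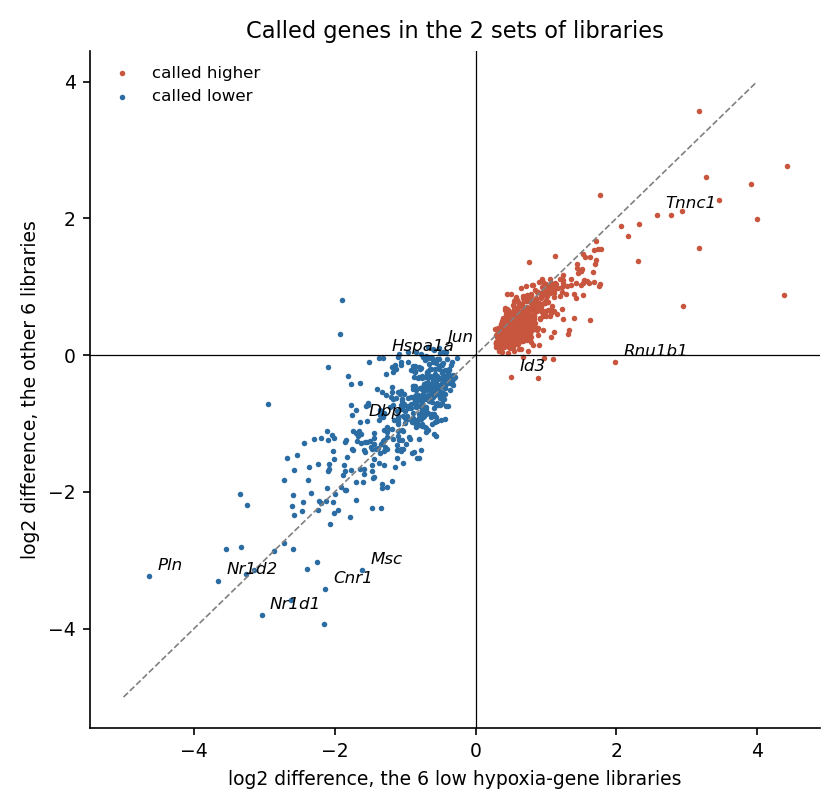
Each point is 1 of 1173 genes called in the 6 low hypoxia-gene libraries and tested in the other 6 (mt-Co2 left out): the horizontal axis is the log2 difference, knockout minus wildtype, in the former and the vertical axis that in the latter; red points were called higher, blue ones lower, and the dashed line marks equal values. Of these genes, those called lower lie mostly below 0 on both axes and those called higher mostly above 0 on both, and Id3, Jun, Hspa1a and Rnu1b1 lie near or across the horizontal 0 line.

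The difference between the 2 contrasts was tested with an interaction term over all 12 libraries. By limma 1 of 12553 genes was called (0.00797%), mt-Co2, and by edgeR 0, while 1070 had an unadjusted p under 0.05 in limma. Arntl (-1.70 and -1.86), Nr1d2 (-3.65 and -3.30), Tnnc1 (2.57 and 2.06) and Rsad2 (-1.11 and -1.50) had like differences in the 2 sets. Hspa1a fell here (-1.32) and had -0.04 in the other set, where both groups stood between 74.2 and 95.0, and the adjusted p of that difference was 0.21. Jun (-0.52 and 0.10) and Id3 (0.51 and -0.32) differed in sign, with adjusted p of 0.23 and 0.45. These genes are thus not shown to respond differently in the 2 sets of libraries. In simulated data, with 100 genes changed by each fold and no library-wide trends drawn, the limma interaction test recovered 15% of 2-fold differences. That share is not the power of the test on the real libraries. The near lack of calls does not show equal responses.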

How the data were processed

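The 12 RNA-seq libraries come as one table of gene counts divided by DESeq2 size factors, a signal that the authors deposited already normalized. Per the submitters' processing notes, the tools were Trimmomatic 0.33, STAR 2.5.2, RSEM 1.3.3 and DESeq2 on mm10; their annotation was not given in the sources used here. Near-identical genes share reads under RSEM. All nonzero values are whole multiples of 1 read (100% within 1e-06), so depth was recovered. GENCODE M21 named 19970 of 20201 genes (98.9%).

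Genes with a mean of 10 or more over the libraries compared were tested with limma 3.58.1 (trended variance, log2(normalized count + 1), Benjamini-Hochberg over all genes tested). The count tests on the recovered reads, edgeR 4.0.16 (1195 calls) and DESeq2 1.42.0 (1500 calls), were alternatives, since the design was written for normalized values; R was 4.3.3 and Python 3.11.15. The fit was tested on simulated data, with 100 genes changed by each fold. For the knockout contrast it recovered 34% of 2-fold and 1% of 1.5-fold changes, with 4 false calls among 39. For the difference between the library sets it recovered 15% and 1%, with 2 false calls among 18. Far fewer genes were changed there than the 1181 called in the real knockout contrast, so the threshold on unadjusted p was stricter in the simulated one. Library-wide trends, such as that with transcript length, were not drawn. The recovered shares are thus not the power of the real fits. A gene that was not called may still have changed. No pair of libraries agreed within sampling noise (smallest chi-square per degree of freedom 5.34). By this measure, with the abundant genes included, knockout replicate 2 was nearer to knockout replicates 4 to 6 (37.9, 20.7 and 27.7) than to knockout replicates 1 and 3 (293 and 483). Other scalings, pseudocounts, library weights, a length correction and leaving out each library were tried. The level of 3 reads covers counting error only.

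The libraries, members and lists were chosen with earlier results of these data known. Named genes were Arntl and the clock lists, the 15 genes that rose and the 15 that fell most (called, mean at least 50) (leaving out predicted, unnamed and mitochondrial ribosomal or transfer RNA genes and pseudogenes), up to 3 risers and 3 fallers per list or its most abundant member, and the 6 largest differences in each direction between the library sets. List members beyond these were named after their values were seen. Results for some genes are not reported here.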

Additional observations from a re-analysis of the deposited data

Results flagged for a closer look

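The knockout difference of mt-Co2, which encodes a subunit of cytochrome oxidase, was larger in the 6 low hypoxia-gene libraries than in the other 6 by 7.58 ± 0.72 on the log2 scale (SE; interaction term in limma, adjusted p = 0.0017). The gene is listed at 0 in wildtype replicates 1 to 3 and at 409, 632 and 154 in knockout replicates 1 to 3. In the other libraries it is listed at 379, 473 and 121 in wildtype replicates 4 to 6 and at 671, 387.5 and 488 in knockout replicates 4 to 6. Gm28661, which holds 651 of the 654 31-base stretches of mt-Co2, was listed at 8041 to 10870 in wildtype replicates 1 to 3 and at 10630 to 11950 in replicates 4 to 6.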

How the results depend on the processing

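The count of 1181 called genes became 2476 with library weights, 509 without the variance trend, 280 when differences beyond 1.2-fold were tested, 2350 with all 12 libraries in the fit, and 343 to 2101 with 1 library left out. In the other 6 libraries it was 1760 to 2588 with 1 library left out. The 1 gene called for a difference between the sets became 0 with a pseudocount of 10 (limma, 1077 at an unadjusted p under 0.05), 3 with library weights, 0 with edgeR (1108 at an unadjusted p under 0.05) and 1 to 4 with 1 library left out. Quantile normalization reversed the sign of Hsp90ab1 (0.36 in the main fit, -0.029) and of Ldha (0.34 and -0.11). Ldha is a HIF target and so part of the choice of libraries, and its values are given as a description. The cause of these changes was not tested. No paired analysis was possible because the labels give no replicate numbers. Depth limits genes near 3 reads, which is 2.47 to 4.65 normalized counts in these libraries.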

Other observations

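Some of the largest and most even changes lay outside the gene lists, and the genes in this paragraph were chosen after their values were seen. H19, an imprinted non-coding RNA next to Igf2, rose from 9148, 8640 and 8607 to 24180, 24770 and 23350 normalized counts (1.45 ± 0.07 on the log2 scale, SE; limma, adjusted p = 0.000186). S100a4, a calcium-binding protein gene, rose from 422, 352 and 374 to 1113, 1125 and 1137 (1.56, adjusted p = 0.00027). Ckb, the brain-type creatine kinase, rose from 202, 180 and 163.5 to 590, 555 and 527 (1.62). Gja5, a gap junction gene, went from 5.28, 6.19 and 5.61 to 70.0, 51.0 and 58.6 (3.17, adjusted p = 0.00165). Its wildtype values lay little above the level of 3 reads in their libraries (2.64, 4.65 and 2.80), so the size of its fold is uncertain. Among the fallers, Prkaa2, a catalytic subunit of the energy sensor AMPK, went from 211, 211 and 188 to 67.6, 70.9 and 79.9 (-1.47, adjusted p = 0.00137). Slc2a4, the insulin-responsive glucose transporter, was less even, with wildtype replicate 2 far above its group. It stood at 66.9, 122 and 69.1 against 37.9, 17.4 and 24.0 (-1.68, adjusted p = 0.0261). In each of these genes the groups did not overlap, as in all 1181 called genes.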
